A study of Mus musculus with 11 samples.

Results

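The 10 genes described here encode dermatopontin and secreted proteins of the fibroblast matrix around collagen, namely Dpt, the small leucine-rich repeat genes Dcn, Bgn, Ogn, Fmod and Lum, the scaffold glycoprotein genes Fn1 and Fbn1, and the lysyl oxidase genes Lox and Loxl1. They were chosen by symbol, as the row marked representative on the sense strand, and are 10 of 29955 gene symbols with such a row. RNA-seq was carried out in im-scWAT cells, which are mouse preadipocytes of inguinal subcutaneous white fat immortalized with SV40 large T antigen. A time course of untransduced cells had 1 library each at days 4 and 8 with rosiglitazone (ROS, a PPARγ ligand, 0.5 μM in the medium) and without it. It also had 2 libraries at day 0, labelled plus and minus ROS, which were treated as 2 replicates because ROS was first added with the induction medium at day 0. A further 5 libraries, all at day 8 with ROS and all with sh-mJmjd1a against the mouse gene, came from cells that carried human JMJD1A, a histone demethylase of H3K9me2, as WT (A and B), S265A, S265D or S265D-H1120Y. S265A removes a phosphorylation site, S265D mimics its phosphorylated state, and H1120Y inactivates the demethylase. The constructs were driven by a retroviral LTR in drug-selected cells. The labels state that ROS was withdrawn for the last day before day 8, whereas the methods describe ROS until the end, and the samples were grouped only by whether they had received it. Nothing states that the libraries with the same label came from separate cultures, so the spread between them may be technical. No label states whether WT A and WT B came from the same experiment, or which mutant was handled with which WT library. A difference between a mutant and WT can therefore not be told apart from one between experiments.

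Dermatopontin is a small secreted protein that binds decorin and fibronectin and speeds up collagen fibril assembly. Decorin, biglycan, osteoglycin (mimecan), fibromodulin and lumican sit on collagen fibrils and govern their diameter and spacing, and decorin and biglycan carry chondroitin or dermatan sulfate chains and bind growth factors such as TGFβ. Fibronectin and fibrillin-1 are laid down as fibres at the cell surface, and lysyl oxidases cross-link collagen and elastin. Preadipocytes are known to make a fibrous matrix rich in fibronectin and to replace it with a basement membrane as they fill with lipid.

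The sequences shown are those of the alternatively spliced fibronectin exons, whose coverage is described below, and of 3 promoters of genes that took different courses. EDB and EDA are fibronectin type III repeats that are each encoded by 1 exon, so whole repeats are included or skipped. The exons are shown from the mm9 genome (chr1:71660337-71660609 for EDB and chr1:71650234-71650503 for EDA, both on the minus strand), with the exon in capitals and 10 intron bases on each side in lower case. In the annotation of the reference, 1 of 3 Fn1 transcripts contains EDB and 2 contain EDA.
Fn1 EDB exon: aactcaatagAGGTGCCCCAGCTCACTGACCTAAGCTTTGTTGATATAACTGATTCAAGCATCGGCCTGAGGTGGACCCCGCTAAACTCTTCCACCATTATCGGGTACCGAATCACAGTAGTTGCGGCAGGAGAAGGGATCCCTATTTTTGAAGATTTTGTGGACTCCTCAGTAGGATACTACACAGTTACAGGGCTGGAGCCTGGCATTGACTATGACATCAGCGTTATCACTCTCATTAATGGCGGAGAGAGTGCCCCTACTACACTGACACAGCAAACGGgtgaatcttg
Fn1 EDA exon: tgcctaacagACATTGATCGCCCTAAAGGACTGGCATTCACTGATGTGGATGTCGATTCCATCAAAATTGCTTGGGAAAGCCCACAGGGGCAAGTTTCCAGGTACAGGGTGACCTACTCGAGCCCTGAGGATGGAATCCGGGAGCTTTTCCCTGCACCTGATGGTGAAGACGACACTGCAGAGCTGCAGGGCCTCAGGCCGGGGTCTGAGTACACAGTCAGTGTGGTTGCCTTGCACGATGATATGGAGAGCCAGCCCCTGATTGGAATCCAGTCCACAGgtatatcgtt

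RefSeq promoters were given for 5 of the 10 genes, and the 250 bases before the RefSeq start are shown for Dpt (chr1:166726544-166726793, plus strand), Bgn (chrX:70728690-70728939, plus strand) and Fbn1 (chr2:125332175-125332424, minus strand), placed on mm9 by an exact match, with CG dinucleotides in capitals. The stretches of Dpt and Bgn end short of the transcripts used for FPKM, which start at 166726863 and 70728974, and only that of Fbn1 adjoins its transcript. These 3 were picked after their FPKM had been seen, because Dpt was called at neither day while Bgn and Fbn1 fell. Dpt had 3 CG dinucleotides, Bgn 7 and Fbn1 13, against a median of 6 over 32851 promoters. Of all promoters 71.0% had at least as many as Dpt, 46.3% at least as many as Bgn and 31.5% at least as many as Fbn1. Ogn had 4 and Fmod 2. A link between the CG count and the course of a gene was not tested.
Dpt promoter: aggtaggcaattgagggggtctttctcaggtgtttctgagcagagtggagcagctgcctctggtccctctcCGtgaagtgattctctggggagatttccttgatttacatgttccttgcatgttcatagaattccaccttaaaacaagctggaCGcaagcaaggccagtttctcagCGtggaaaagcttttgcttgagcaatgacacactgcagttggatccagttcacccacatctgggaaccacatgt
Bgn promoter: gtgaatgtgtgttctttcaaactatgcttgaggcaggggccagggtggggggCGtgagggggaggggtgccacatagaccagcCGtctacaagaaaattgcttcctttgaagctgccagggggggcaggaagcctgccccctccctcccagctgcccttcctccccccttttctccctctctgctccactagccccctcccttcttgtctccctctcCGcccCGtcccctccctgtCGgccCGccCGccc
Fbn1 promoter: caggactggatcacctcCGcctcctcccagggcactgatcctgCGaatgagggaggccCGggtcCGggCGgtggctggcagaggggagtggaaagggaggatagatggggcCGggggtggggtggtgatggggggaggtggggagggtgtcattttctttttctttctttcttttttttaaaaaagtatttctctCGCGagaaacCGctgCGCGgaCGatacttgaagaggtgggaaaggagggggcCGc

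Levels are given as FPKM (fragments per kilobase of exon, scaled to the mapped depth of the library), a value per length, so that genes can be compared. The total of mapped bases went from 3.10 to 5.29 Gb per library with a median of 4.64 Gb, and the FPKM of 100 mapped bases on 2 kb of exon was 0.00944 to 0.0161. Log2 differences were fitted with limma to log2(FPKM + 0.1) in the 6 time course libraries, with terms for day and ROS, and are means over cells with and without ROS. A gene was called at a Benjamini-Hochberg adjusted p of 0.05 over 16400 genes. The fit has 2 residual degrees of freedom, which come from the pair of day 0 and from how far the effect of ROS differed between days 4 and 8. Kdm3a, the mouse Jmjd1a gene, had an FPKM of 13.0 to 28.5 in the transduced and 15.1 to 23.2 in the other libraries, and since reads of the human cDNA can align to it, this does not check the knockdown. The 2 libraries of day 0 were 2-fold apart in 2.16% of 15030 genes and in 0 of the 9 genes described here that reached an FPKM of 0.1 in either.

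At day 4, 5 of the 10 genes were lower than at day 0 (Fn1, Fbn1, Bgn, Lox and Loxl1) and 2 were higher (Dcn and Lum), while Dpt, Ogn and Fmod did not pass the test. Over all genes, 21.6% were called lower and 23.3% higher at day 4. At day 8, 6 genes were lower (the 5 of day 4 and Ogn) and Dcn was higher, beside 26.6% of all genes called lower and 26.5% called higher. Without day 0 replicate 2, 4 of the 10 genes were called at day 4 and 2091 in place of 7370 of all genes, and at day 8 5 of the 10 and 3984 in place of 8696. The median log2 difference of the 10 genes was -1.20 at day 4 and -1.38 at day 8, and that of all genes was 0.01 and -0.03. In 5 of the 10 genes all 4 libraries of days 4 and 8 were below both of day 0, as in 30.8% of all genes, and in Dcn all 4 were above, as in 31.0%. In bulk RNA, fewer cells of a type and less RNA per cell cannot be told apart. The plot of FPKM by day shows 5 genes below and Dcn above day 0 in all later libraries, and Dpt on both sides of it.

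**Figure D1:**
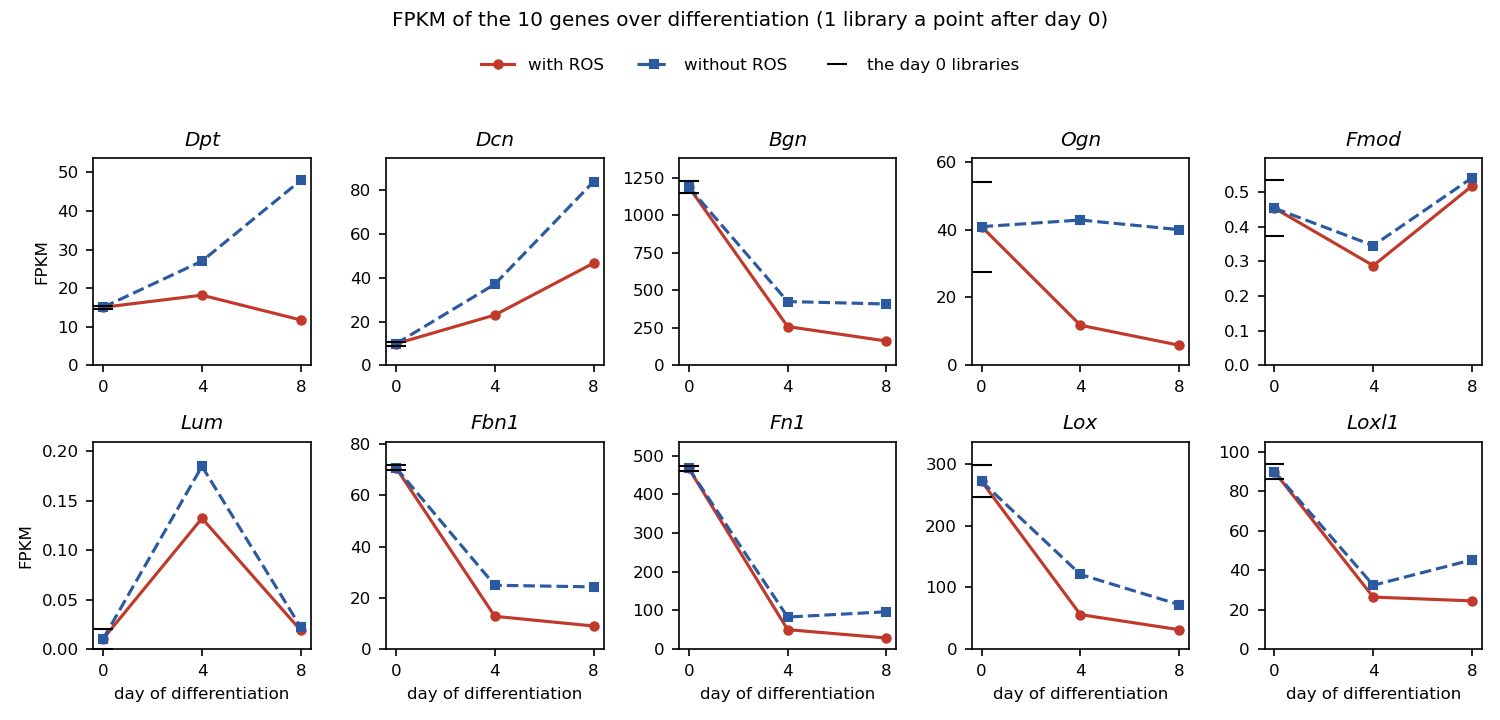
FPKM (y axis, from 0) of each of the 10 genes against the day of differentiation, with ROS (red circles) and without ROS (blue squares), 1 library a point; black ticks are the 2 libraries of day 0 and both lines start at their mean. Bgn, Fbn1, Fn1, Lox and Loxl1 lie below day 0 in all 4 later libraries, Dcn lies above, and Dpt parts with and without ROS to 11.7 and 47.9 at day 8.

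Dpt, the dermatopontin gene, lies on chr1:166726863-166754397 with 1 listed transcript of 1636 bases. Its FPKM was 14.7 and 15.4 at day 0, 18.2 with ROS and 27.0 without at day 4, and 11.7 with ROS and 47.9 without at day 8. The libraries without ROS thus stood above day 0 at both days, and the library with ROS at day 8 stood below it. Averaged over both, the log2 difference was 0.56 (SE 0.37, adjusted p = 0.270, limma) at day 4 and 0.66 (SE 0.37, adjusted p = 0.189) at day 8. The mean hides the split by ROS, and single libraries decided it. Without the day 8 library that lacked ROS, the difference at day 8 was -0.068 (adjusted p = 0.591), and without the one that had ROS it was 1.38 (adjusted p = 0.0325). For day 4 it was -0.17 (adjusted p = 0.264) without the ROS library and 1.28 (adjusted p = 0.0402) without the other. Leaving out either library of day 4 also took the interaction of day and ROS out of the residual, and the difference of 0.66 at day 8 then had an adjusted p of 0.0260.

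Dcn encodes decorin, the dermatan sulfate proteoglycan of collagen fibrils, and lies on chr10:96944984-96980796. It had an FPKM of 10.8 and 8.87 at day 0, 23.0 with ROS and 37.1 without at day 4, and 46.7 with ROS and 84.0 without at day 8. The 4 later libraries were all above day 0, and the day 8 libraries were above the day 4 libraries of the same treatment. Its log2 difference was 1.57 (SE 0.16, adjusted p = 0.00348, limma) at day 4 and 2.67 (SE 0.16, adjusted p = 0.000886) at day 8. The day 4 call was lost without the library with ROS (adjusted p = 0.0562) or without the one lacking ROS (0.0604), with differences of 1.49 and 1.65. In a fit of all 11 libraries the differences were the same but neither day was called (adjusted p = 0.353 and 0.125). The residual of that fit also takes in the WT pair, which was 11.1-fold apart in Dcn. Decorin transcripts ranked 6056th and 6646th of 29955 genes at day 0 and 1800th and 1055th at day 8.

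Bgn encodes biglycan, the closest relative of decorin, and lies on chrX:70728974-70741275. It had the highest FPKM of the 10 genes in all 11 libraries and ranked 42nd and 45th of all genes at day 0. Its FPKM was 1152 and 1228 at day 0, 258 with ROS and 425 without at day 4, and 162 with ROS and 409 without at day 8. All 4 later libraries were below both of day 0. The log2 difference was -1.84 (SE 0.20, adjusted p = 0.00369, limma) at day 4 and -2.21 (SE 0.20, adjusted p = 0.00198) at day 8, a 3.59-fold and a 4.62-fold fall. Without day 0 replicate 2 the day 4 difference was -1.80 (adjusted p = 0.0508). The close relatives Bgn and Dcn therefore moved in opposite directions from day 0 to day 8.

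Ogn encodes osteoglycin and lies on chr13:49703440-49719869. Its FPKM was 54.1 and 27.6 at day 0, a 1.96-fold gap and the widest of the 9 genes that were measurable in both libraries of day 0. It was 11.8 with ROS and 42.8 without at day 4, and 5.89 with ROS and 40.0 without at day 8. The libraries without ROS lay between those of day 0 and the libraries with ROS lay below both. The log2 difference was -0.78 (SE 0.41, adjusted p = 0.183, limma) at day 4 and -1.32 (SE 0.41, adjusted p = 0.0492) at day 8. The day 8 call was lost on leaving out any 1 of the 6 libraries, with differences from -1.81 (adjusted p = 0.0519, without day 0 replicate 2) to -0.84 (0.175, without day 0 replicate 1) and adjusted p up to 0.399 without the day 8 library with ROS (-0.88). Leaving out the day 8 library without ROS gave -1.77 (adjusted p = 0.171), and leaving out either day 4 library gave -1.32 (0.152 and 0.151). With a replicate block by the plus or minus ROS label of all 6 libraries, the adjusted p was 0.285.

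Fmod, the fibromodulin gene at chr1:135934092-135944854, and Lum, the lumican gene at chr10:97028135-97035337, were low throughout. Fmod had an FPKM of 0.535 and 0.373 at day 0, 0.288 with ROS and 0.346 without at day 4, and 0.518 with ROS and 0.542 without at day 8. Those values overlap and no day was called (log2 difference -0.40 at day 4 and 0.20 at day 8, adjusted p = 0.160 and 0.417, limma). Lum had an FPKM of 0.0206 and 0 at day 0, 0.132 and 0.185 at day 4 with and without ROS, and 0.0188 and 0.0220 at day 8. The day 4 values rest on 1386 and 1189 mapped bases, against 199 and 0 at day 0, and no fold is given. Lum was called higher at day 4 (adjusted p = 0.00674), and the call was lost without the day 4 library with ROS (adjusted p = 0.0601), without the one lacking ROS (0.0854), without day 0 replicate 2 (0.0642) and with a pseudocount of 1 (0.131). At day 8 the adjusted p was 0.532.

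Fn1 encodes fibronectin, the glycoprotein on which collagen and other matrix fibres are assembled, and lies on chr1:71632097-71699745 with 10 listed transcripts. Its FPKM was 460.2 and 474 at day 0, 50.2 with ROS and 82.8 without at day 4, and 28.6 with ROS and 96.4 without at day 8. The later libraries were all far below the day 0 pair, which differed by 1.03-fold. Its log2 difference of -2.85 (SE 0.27, adjusted p = 0.00297, limma) at day 4 and -3.15 (SE 0.27, adjusted p = 0.00189) at day 8 was the largest fall of the 10 genes, 7.23-fold and 8.87-fold. In a fit of all 11 libraries, whose residual also takes in the WT pair, the day 4 difference was the same and its adjusted p was 0.0506. Without a filter on low FPKM it was 0.0670 at day 4 and 0.0507 at day 8.

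Fbn1 encodes fibrillin-1, the main protein of microfibrils, and lies on chr2:125126330-125332174 with a transcript of 9900 bases. It had an FPKM of 69.8 and 71.7 at day 0, 12.8 with ROS and 24.9 without at day 4, and 9.00 with ROS and 24.3 without at day 8. Both treatments were below day 0 and changed less from day 4 to day 8 than from day 0 to day 4. The log2 difference was -1.98 (SE 0.17, adjusted p = 0.00219, limma) at day 4 and -2.25 (SE 0.17, adjusted p = 0.00136) at day 8. It was called at both days under each alternative that was run, with a highest adjusted p of 0.0427.

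Lox and Loxl1 encode lysyl oxidases, the copper enzymes that start the cross-linking of collagen and elastin. Lox, on chromosome 18, had an FPKM of 297 and 246 at day 0, 55.8 with ROS and 121 without at day 4, and 31.3 with ROS and 71.9 without at day 8. It fell further from day 4 to day 8 in both treatments. Its log2 difference was -1.72 (SE 0.16, adjusted p = 0.00269, limma) at day 4 and -2.51 (SE 0.16, adjusted p = 0.000971) at day 8. Without the day 4 library lacking ROS, the day 4 difference was -1.68 (adjusted p = 0.0590). Loxl1, at chr9:58135530-58161019, is needed for elastic fibres and had an FPKM of 86.0 and 93.7 at day 0, 26.3 with ROS and 32.3 without at day 4, and 24.4 with ROS and 45.2 without at day 8. All later libraries were below day 0, and the library without ROS was higher at day 8 than at day 4. The log2 difference was -1.62 (SE 0.19, adjusted p = 0.00491) at day 4 and -1.43 (SE 0.19, adjusted p = 0.00539) at day 8. Without day 0 replicate 2 it was -1.56 (adjusted p = 0.0589) and -1.37 (0.0535).

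Between day 4 and day 8, 0 of the 10 genes passed the test in limma, while 4 had an unadjusted p under 0.05, and over all genes 140 of 16400 (0.854%) were called and 4707 had such a p. Leaving out any 1 library brought the 140 to 0. The differences nearest to the threshold were those of Dcn (log2 1.10, SE 0.16, adjusted p = 0.0731), Lum (-1.09, 0.0756) and Lox (-0.79, 0.0883). Dcn was called with a pseudocount of 1 (adjusted p = 0.0285), with median-of-ratios scaling (0.0497), at a minimum FPKM of 1 (0.0413) and with a mean-variance trend (0.0207). Lox was called with a pseudocount of 1 (0.0393) and with the trend (0.0316).

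**Figure D2:**
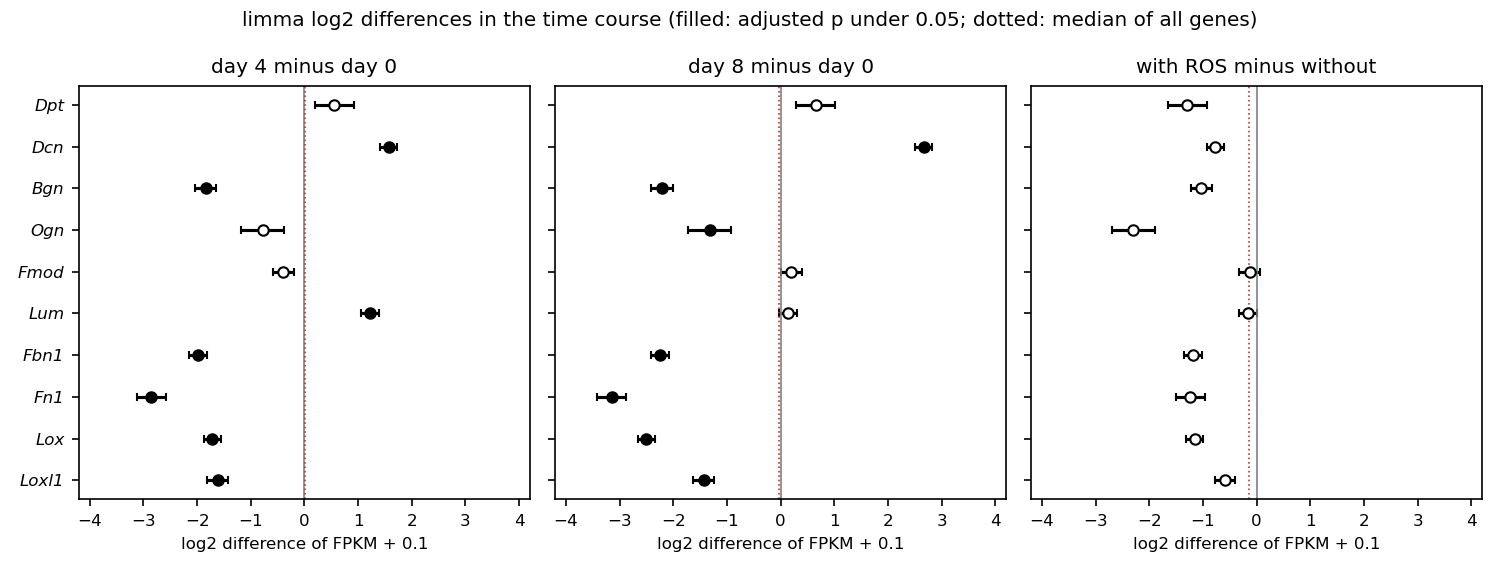
Log2 differences (x axis, log2 of FPKM + 0.1) of the 10 genes between day 4 and day 0, day 8 and day 0, and with and without ROS, from limma on 6 libraries; bars are 1 SE, filled points have an adjusted p under 0.05 and the dotted line is the median of all genes. In the right panel all 10 points are below 0 and none is filled.

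With ROS, each of the 10 genes had a lower FPKM than without it at day 4 and again at day 8. All genes leaned the same way, with a median log2 ratio of -0.07 at day 4 and -0.21 at day 8. The share of all genes that were lower at both days was not worked out. For Lum at day 8 both libraries held 198 mapped bases, so its lower FPKM there was the difference in depth alone. At day 4 the ratio of FPKM + 0.1 was at most 0.5 in 2 of the 10 genes, Ogn and Lox, beside 2.03% of 15246 genes, and at day 8 in 6 of the 9 that reached an FPKM of 0.1 (Ogn, Dpt, Fn1, Fbn1, Bgn and Lox), beside 11.5% of 15536 genes. None of the 10 was 2-fold higher with ROS at either day, and over all genes only 1.18% were at day 4 and 3.06% at day 8. These ratios compare 1 library with 1 library and have no replicate check.

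The widest gap was in Ogn, 3.61-fold lower with ROS at day 4 and 6.69-fold at day 8 (on FPKM + 0.1), where the 2 libraries of day 0 were 1.96-fold apart. Dpt came next at day 8 with 4.06-fold, after 1.48-fold at day 4, and its day 0 pair was 1.05-fold apart. Fn1 was 1.65-fold lower at day 4 and 3.36-fold at day 8. These 3 genes thus had a wider gap at day 8 than at day 4. Fbn1 was 1.94-fold and 2.68-fold lower, and Bgn 1.65-fold and 2.53-fold. Lox was 2.16-fold lower at day 4 and 2.29-fold at day 8, Dcn 1.61-fold and 1.80-fold, and Loxl1 1.23-fold and 1.85-fold. Fmod had 1.15-fold and 1.04-fold gaps, narrower than the 1.34-fold gap of its day 0 pair.

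In limma over both days, the log2 difference with ROS was negative for all 10 genes with a median of -1.09, beside -0.13 for all genes. None was called, and 0 of 16400 genes (0.0%) were, the smallest adjusted p being 0.184, while 8 of the 10 genes and 2901 of all genes had an unadjusted p under 0.05. The difference was -2.30 (SE 0.41, adjusted p = 0.186) for Ogn, -1.29 (SE 0.37, adjusted p = 0.231) for Dpt, -1.23 (SE 0.27, adjusted p = 0.195) for Fn1 and -1.19 (SE 0.17, adjusted p = 0.184) for Fbn1. Lox, Bgn, Dcn and Loxl1 had differences from -1.15 to -0.59, and Lum and Fmod of -0.17 and -0.13. Scaling the libraries by the median of ratios moved the median of all genes by 0.12 to -0.02 and that of the 10 genes to -0.97, all 10 still negative. With that scaling 6 genes remained 2-fold lower at day 8 in a background of 8.59%, and Fmod was no longer lower with ROS at day 8.

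**Figure D3:**
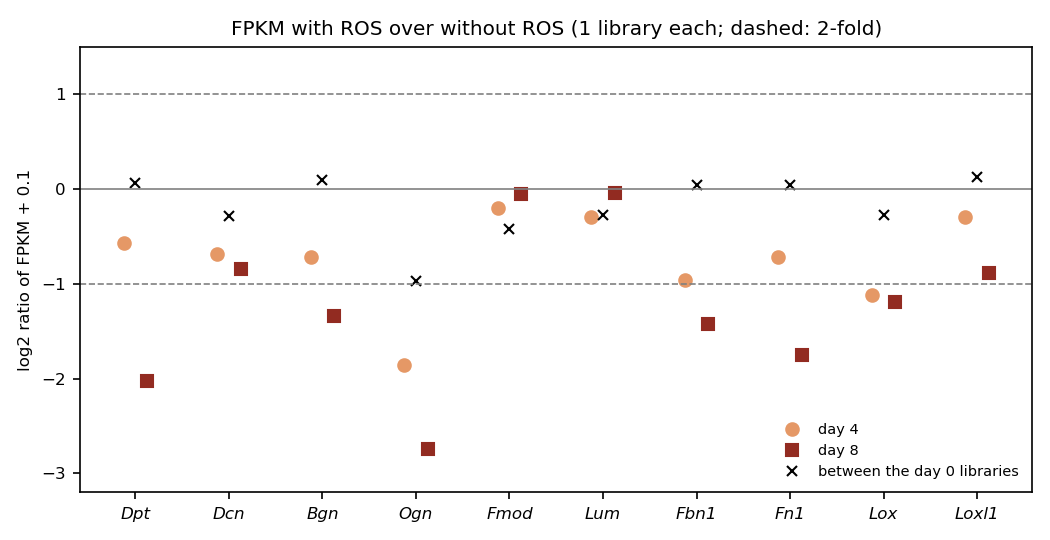
Log2 ratio of FPKM + 0.1 with ROS over without ROS (y axis) for each gene at day 4 (circles) and day 8 (squares), 1 library each, with the ratio of day 0 replicate 2 over 1 as crosses; dashed lines mark 2-fold. Ogn lies at -1.85 and -2.74 and Dpt moves from -0.57 to -2.02, while Fmod and Lum stay near 0 at day 8.

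Fibronectin transcripts differ by the EDB, EDA and V segments, and the deposited transcripts allowed their coverage to be read from pairs that differ by 1 segment only. This was done after the files had been seen. Coverage is given as mapped bases per position of the segment, in percent of that over the exons of the transcript that lacks all 3 segments. EDB, the 273-base exon printed above, stood at 53.1% and 51.5% at day 0. It stood at 42.9% with ROS and 45.5% without at day 4, and at 36.0% with ROS and 38.5% without at day 8. All 4 later libraries were below both of day 0, and both treatments were close to each other at each day, unlike the FPKM of the whole gene. EDA, the 270-base exon, stood at 47.7% and 45.0% at day 0, at 34.0% and 32.9% at day 4 with and without ROS, and at 35.4% and 30.6% at day 8. The 360 bases of the V segment, where integrin α4β1 binds, stood at 156% and 165% at day 0 and at 130% to 145% later. Values over 100% show that coverage is uneven along the transcript, so that the percentages are not shares of molecules. That unevenness also moved between days. A listed transcript of 1360 bases at the 5' end had an FPKM of 298 and 318 at day 0, beside 464 and 476 for the transcript lacking all 3 segments. At day 8 it had 23.8 with ROS and 84.2 without, beside 29.5 and 99.0. The part of this shift in the fall of the segments was not tested. Means were 52.3% ± 1.14 (SD, n = 2) and 40.7% ± 4.26 (SD, n = 4) for EDB, and 46.4% ± 1.86 (n = 2) and 33.2% ± 2.02 (n = 4) for EDA. The 4 are 1 library each of 4 conditions, taken as 1 group here and in the test below. Their SD thus includes differences between days and treatments and is not a spread of replicates. The exact two-sided permutation test gave p = 0.133 for each of the 3 segments, the smallest p that 2 against 4 libraries allow. In the transduced libraries EDB ranged from 28.1% to 37.6%, EDA from 23.2% in S265D-H1120Y to 42.4% in S265D, and V from 140.4% to 147%.

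**Figure D4:**
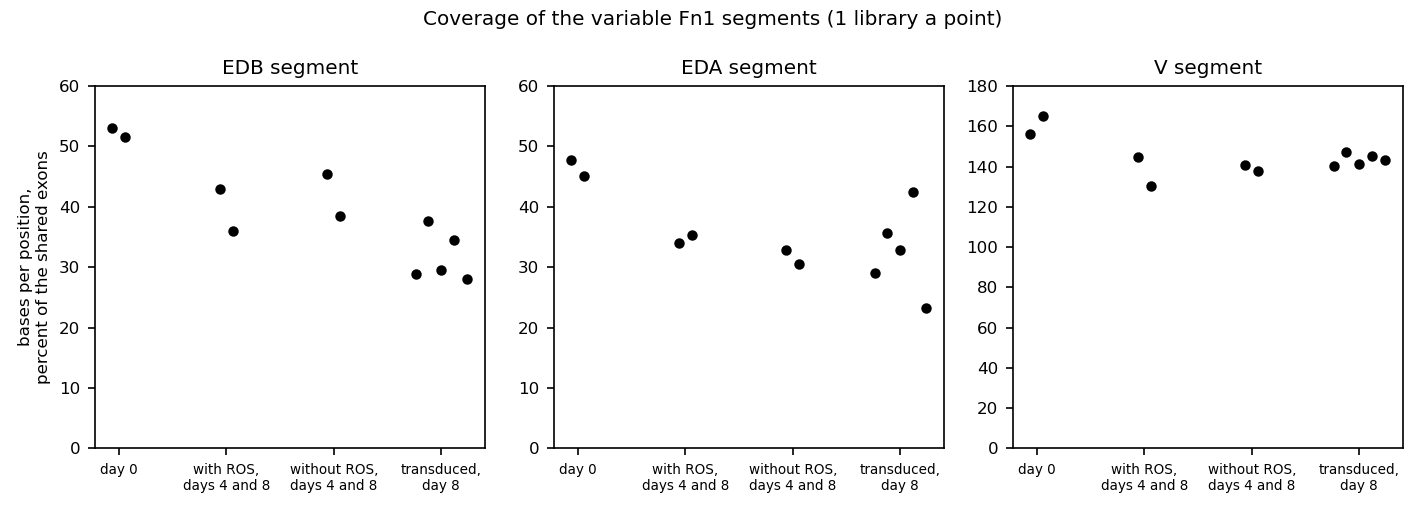
Mapped bases per position of the EDB, EDA and V segments of Fn1, in percent of the exons that all 7 full-length transcripts share (y axis, from 0), 1 library a point, grouped as day 0, days 4 and 8 with ROS, days 4 and 8 without ROS, and the 5 transduced libraries. Both day 0 points lie above the 4 later untransduced points in each panel.

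In the transduced cells, all at day 8 with ROS, the 2 WT libraries stood apart in several of the genes. Over all genes they were 2-fold apart in 22.8% of 15837, against 2.16% for the pair of day 0. Dcn had an FPKM of 5.57 in WT A and 62.8 in WT B, an 11.1-fold difference on FPKM + 0.1. Fn1 was 50.0 and 227 (4.52-fold), and Ogn 13.5 and 42.2 (3.12-fold). These 3 of 9 genes were over 2-fold higher in WT B, beside 13.6% of 15837 genes. Fmod, at a low FPKM of 0.477 in WT A and 0.170 in WT B, was 2.14-fold lower, beside 9.21% of genes 2-fold lower. Dpt was 13.7 and 22.8 in the same order, and Bgn 220.5 and 421. Loxl1, at 36.1 and 35.1, was the only one of the 9 that differed by less than 1.1-fold. Untransduced cells at day 8 with ROS had 46.7 for Dcn, so WT A lay 8.26-fold below them (on FPKM + 0.1) and below every other library in this gene.

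The mutants were compared with WT to ask whether the phosphorylation site bears on these genes, and S265D-H1120Y with S265D to ask the same of demethylase activity. In limma on the 5 libraries, with 1 residual degree of freedom from the WT pair, 0 of the 9 genes tested (Lum did not reach the minimum) and 0 of 16402 genes (0.0%) were called in each of the 3 comparisons. An unadjusted p under 0.05 was found for 107, 99 and 187 of all genes and for 0 of the 9. Against the mean of both WT libraries the median log2 difference of the 9 genes was 0.49 in S265A and 0.54 in S265D, and it was -0.42 in S265D-H1120Y against S265D. All 9 were above WT in S265A by that mean, but without WT A the differences of Dcn (-0.11), Bgn (-0.19), Ogn (-0.43) and Fn1 (-0.59) in S265A turned negative. Without WT B, 411 of all genes and Dcn (log2 3.97, adjusted p = 0.0377) were called in S265D, in a joint fit of 10 libraries in which the lone WT library is assumed to vary like the time course.

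Among the 3 mutants, Dcn was 37.6 in S265D-H1120Y, 58.3 in S265A and 88.6 in S265D. S265A lay between the WT libraries and S265D above both. Ogn followed with 26.3, 31.4 and 61.1 in the same order. In S265D-H1120Y against S265D, Dcn and Ogn were 2.35-fold and 2.32-fold lower on FPKM + 0.1, beside 6.29% of 15760 genes that were 2-fold lower. Dpt, at 32.0 against 13.8, was 2.31-fold higher, and Fmod, at 1.53 against 0.238, was 4.84-fold higher, beside 3.86% of genes 2-fold higher. These ratios rest on 1 library each, as do all positions against the WT pair given here and below. The share of all genes that lay outside the WT pair in a mutant was not worked out, so these positions have no background. Dpt was 23.0 in S265A, close to WT B, and S265D was close to WT A. Fmod was 1.36 in S265A, above the 0.477 and 0.170 of WT A and WT B.

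The other genes had narrower ranges over the 3 mutants. Bgn had an FPKM of 367 in S265A, 365 in S265D and 272 in S265D-H1120Y, all between WT A and WT B. Fn1 had 150.1, 202 and 237, the last just above WT B. Fbn1 had 11.8, 12.1 and 15.03 against 6.87 and 9.99 in WT. Lox had 68.7 in S265A and 72.8 in S265D, above the 34.0 and 57.9 of WT, and 50.3 in S265D-H1120Y. Loxl1 had 43.0 in S265A and 36.0 in S265D, and 24.2 in S265D-H1120Y, below both WT libraries. Lum was at most 0.0724.

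**Figure D5:**
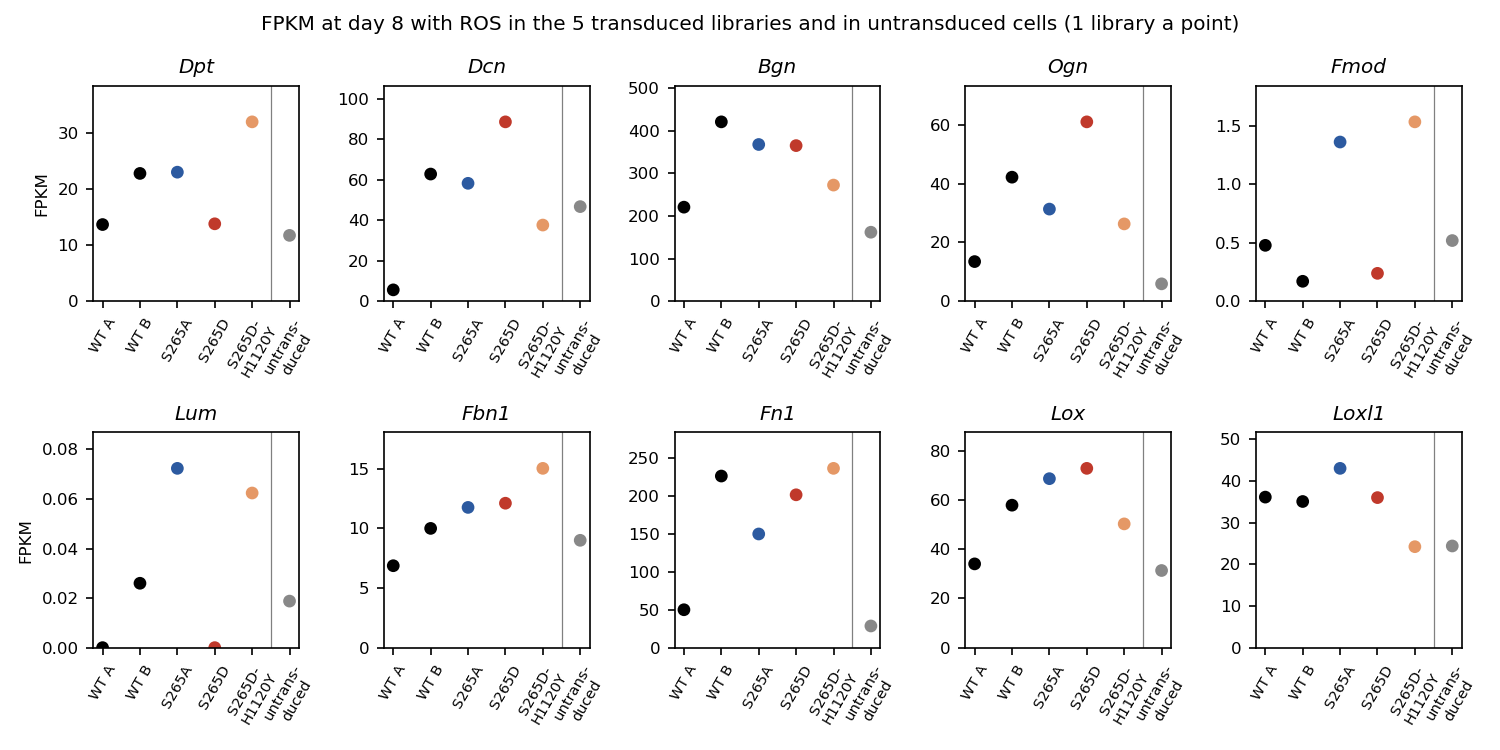
FPKM (y axis, from 0) of each gene at day 8 with ROS in WT A and WT B (black), S265A (blue), S265D (red) and S265D-H1120Y (orange), and in untransduced cells (grey), 1 library a point. WT A lies far below WT B in Dcn, Fn1 and Ogn, while both lie together in Loxl1.

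Dcn and Lum are neighbours, as are Fmod and Prelp and Optc, and Ogn with Omd, Aspn and Ecm2, since small leucine-rich repeat genes lie in clusters. The cluster of Dcn, Lum, Kera and Epyc spans 200 kb on chromosome 10, and only Dcn was above an FPKM of 0.2 in any library. On chromosome 1, Prelp, the gene of the basement membrane linker PRELP, lies 116 kb from Fmod. Prelp had an FPKM of 1.54 and 1.31 at day 0, 11.7 with ROS and 5.52 without at day 4, and 27.5 with ROS and 12.5 without at day 8. It was thus higher with ROS at both days, unlike the 10 genes, with 1 library each. This difference with ROS was not called (log2 1.10, adjusted p = 0.184, limma). The log2 difference of Prelp from day 0 was 2.42 at day 4 and 3.62 at day 8 (adjusted p = 0.00106 and 0.000431, limma). The cluster of Ecm2, Aspn, Omd and Ogn spans 120 kb on chromosome 13. Omd, the osteomodulin gene, had an FPKM of 3.03 and 2.45 at day 0, 1.46 with ROS and 4.16 without at day 4, and 0.780 with ROS and 3.73 without at day 8. Aspn, the asporin gene, had 8.97 and 5.06, then 5.75 and 12.5, then 1.27 and 9.91 in the same order. Like Ogn, both were lower with ROS than without it at both days. Their log2 differences with ROS were -1.79 for Omd, -1.99 for Aspn and -0.85 for Ecm2 beside -2.30 for Ogn, with adjusted p of 0.184, 0.220, 0.186 and 0.186. Omd, Aspn, Ecm2 and Optc were named after their position and values had been seen.

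Of 12 other small leucine-rich repeat genes, 9 were tested and 4 were higher and 1 lower at day 4, and 2 higher and 1 lower at day 8. Prelp led them in FPKM, followed by Tsku (mean FPKM 8.56 at day 0 and 22.8 at day 4, log2 difference 1.40, adjusted p = 0.0368, and 1.04 at day 8, adjusted p = 0.0699) and Aspn (0.33 at day 4, adjusted p = 0.630, and -0.89 at day 8, adjusted p = 0.203). Of 19 other proteoglycan genes, 15 were tested, 5 higher and 5 lower at day 4 and 5 higher and 6 lower at day 8. Hspg2, the perlecan gene, had a log2 difference of -0.26 (adjusted p = 0.351) at day 4 and -1.29 (adjusted p = 0.00829) at day 8, and the syndecan genes Sdc4 and Sdc2 of -0.72 and -1.12 at day 4 (adjusted p = 0.0221 and 0.0133) and of -0.41 and -1.45 at day 8 (0.0828 and 0.00556).

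Of 16 other genes of elastic fibres and microfibrils, 15 were tested and 1 was higher and 7 were lower at day 4, and 2 higher and 7 lower at day 8. Fbln2, the fibulin-2 gene, went from a mean FPKM of 281 before induction to 37.7 and then 32.6 at days 4 and 8, and Ltbp1, which tethers latent TGFβ to microfibrils, from 77.6 to 4.25 and 3.33. Efemp2, the fibulin-4 gene needed for lysyl oxidase to reach elastin, went from 126 to 46.5 and 49.7. All 3 fell at both days (adjusted p at most 0.0193, limma). Of 14 other lysyl oxidase and procollagen processing genes, 13 were tested, and 12 fell at day 4 and 11 at day 8, with 0 higher. Their median log2 difference was -1.60 at day 4 and -1.68 at day 8. Pcolce, which enhances procollagen cleavage, went from 453 to 194 and 177, Serpinh1, the collagen chaperone HSP47, from 331 to 116 and 136, and Loxl3 from 95.1 to 30.9 and 21.1.

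Of 16 genes of fibronectin receptors and matricellular proteins, 15 were tested, and 10 fell and 2 rose at day 4 and 12 fell and 2 rose at day 8. Thbs1 and Thbs2, the thrombospondin genes, fell from a mean FPKM of 297 to 20.3 and 15.5 and from 512 to 68.7 and 42.8 at days 0, 4 and 8. Sparc, the collagen-binding osteonectin gene, fell less, from 833 to 438 and 548. All 23 genes of glycosaminoglycan chain synthesis, which build the sugar chains of decorin and biglycan, were tested, and 10 fell and 2 rose at day 4 and 14 fell and 4 rose at day 8. Ugdh, which makes UDP-glucuronic acid, went from 123 to 52.0 and 35.0 (log2 difference -1.83 at day 8, adjusted p = 0.00206). Papss1, which makes the sulfate donor, had a log2 difference of -0.54 at day 4 and -0.63 at day 8 (adjusted p = 0.0767 and 0.0472), and the linkage enzyme gene B3gat3 of 0.22 and 0.51 (0.282 and 0.0427). Counts of 0 called genes were found in each of these lists for ROS and for the 3 construct comparisons.

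The cells were checked against marker genes. Of 10 adipocyte markers, 9 were higher at days 4 and 8, and their summed FPKM was 281 and 284 at day 0, 34195 with ROS and 24392 without at day 4, 37865 with ROS and 12104 without at day 8, and 16799.8 to 30629.5 in the transduced libraries. Most of that sum was Fabp4 (31402 with ROS and 7631 without at day 8), and 4 of the 10, Pparg (139.6 against 231), Cfd (1182 against 1887), Retn (238 against 278) and Lep, were lower with ROS at day 8. Lep was listed at 0 in both libraries of day 0 and at most at 0.252 elsewhere. Of 10 preadipocyte and fibroblast markers, 9 were tested, 5 being lower at both days, 2 higher at day 4 and 3 higher at day 8. Their sum, mostly Ly6a and Col1a1, was 967 and 1043 at day 0, 287 with ROS and 384 without at day 4, and 192 with ROS and 747 without at day 8, and 299.7 in WT A against 757 in WT B. That sum was lower with ROS and lower in WT A, as the genes described here mostly were, and its part in the result was not tested. Among 7 immune markers Ptprc and Emr1 were listed at 0 in all 11 libraries, and the sum of 0.590 to 21.8 was mostly Cd68. Among 6 endothelial markers Cdh5 and Tie1 did not exceed 0.0112, and the sum was 0.414 to 4.02. The sum of 6 smooth muscle and pericyte markers was 136 and 145 at day 0 and 7.55 to 25.3 elsewhere, which was mainly Acta2 (131 and 139.6, then 2.52 to 12.6). At both days 3 of the 6 were called higher and 2 lower, and Des went from 0.407 and 0.568 at day 0 to between 3.598 and 12.2 elsewhere. Krt19, which carried most of the sum of 6 mesothelial and epithelial markers, had 57.9 and 62.4 at day 0, 0.0931 to 0.819 at days 4 and 8 and 11.01 to 36.0 in the transduced libraries. The part of the last 2 lists in the fall of the matrix genes was not tested.

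The genes whose course over the 11 libraries was most like that of Dpt were found by the root mean square difference of log2(FPKM + 0.1), each gene centred on its own mean, among 13614 genes that reached an FPKM of 1 in a library. They were Ust, which adds sulfate to dermatan sulfate chains, at 0.27, Camk1 at 0.34, 4933431E20Rik at 0.36, SASH1 at 0.36 and Tor3a at 0.37. Ust had an FPKM of 2.72 and 2.55 at day 0, 2.59 with ROS and 5.01 without at day 8, and from 2.20 in S265D to 4.25 in S265D-H1120Y. Among the 10 genes themselves, without Lum, Bgn and Lox were nearest to each other (0.28), Fbn1 was nearest to Lox (0.34) and Loxl1 to Bgn (0.37). Fn1 (0.72) and Ogn (0.79) were also nearest to Bgn but farther off, Dpt and Fmod were nearest to each other (0.80), and Dcn stood farthest, at 1.14 from Dpt. The distances are a description over libraries that share cells and treatments.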

How the data were processed

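RNA was sequenced from 11 samples of im-scWAT cells on HiSeq 2500, from TruSeq libraries. The authors aligned the reads to UCSC transcripts and mm9 with Burrows-Wheeler aligner, realigned them locally (k = 11) and calculated strand-specific FPKM, which they deposited per transcript for the sense and antisense strand. A deposited column of mapped bases gives the coverage signal of each transcript. These bases are not read counts, so no count test was used, and each file holds 1 sample. Library depth was worked out from FPKM, exon length and mapped bases.

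The sense row marked representative was used for each of 29955 symbols. log2(FPKM + 0.1) was fitted with limma (version 3.58.1, R 4.3.3) with Benjamini-Hochberg adjustment, for genes that reached an FPKM of 0.1 in a library of the fit. This scale understates the change of low genes. The time course fit had terms for day and ROS and 2 residual degrees of freedom, and the construct fit had 1. The 2-fold ratios with ROS have 1 library a side and no test. On simulated data in which 200 genes were changed by a log2 of 2, the comparison of day 8 with day 0 recovered 200 with 15 false calls among 15324 genes. The simulation gave every gene the same spread between libraries and changed no other gene, unlike the data. It therefore does not show how reliable the calls in the data are. Alternatives were set for the pseudocount, transcript, scaling, minimum FPKM, variance trend, model and libraries, and a block by ROS label was added after the data had been seen.

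All 10 genes are named, and of each related list the 3 genes with the highest FPKM over the 11 libraries, the 5 genes most like Dpt and the nearest of the 10 to each. The genes and lists were chosen with earlier results of these data known. Sequences came from the mm9 reference and from RefSeq promoters, which covered 5 of the 10 genes. Scripts used Python 3.11.15, pandas 2.3.3, numpy 2.4.6, scipy 1.17.1 and matplotlib 3.10.9.

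Antisense rows stayed out of the fits. Of the 10 genes, Ogn overlaps Cenpp, Fn1 overlaps AK049041 and Gm15456, and Lox overlaps AK084265 in the files. Antisense bases were 1.52% to 2.28% of all bases per library and at most 0.801% for any of the 10 genes.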

Additional observations from a re-analysis of the deposited data

Results flagged for a closer look

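Antisense rows were used in no comparison. In 2 of the genes their highest FPKM was at least 0.1 and at least 2 times that of either library of day 0, and smaller excesses over day 0 in other genes are not listed. The antisense FPKM of Dcn reached 0.234 in S265A, against at most 0.0120 at day 0, beside a sense FPKM of 58.3. The antisense FPKM of Dpt reached 0.116 without ROS at day 4, against at most 0.0520 at day 0, beside a sense FPKM of 27.0. In both genes the antisense bases were under 1% of the bases of the gene.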

How the results depend on the processing

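With 1 library per condition after day 0, calls rest on 2 residual degrees of freedom or fewer, and depth limits only Lum and Fmod, whose low FPKM rests on few mapped bases. The labels give no replicate number that the groups share, but they mark each day 0 library as plus or minus ROS. A fit with a replicate block by that label, added after the data had been seen, kept the differences, called 7 of the 10 genes and 5523 of all genes at day 4, 6 and 6988 at day 8 and 0 of all genes between the days, and changed no call of the 10 genes but that of Ogn at day 8 (adjusted p = 0.285). Over 16400 genes, the difference between labels at day 0 had a correlation of -0.16 with that at day 4 and -0.028 with that at day 8, so the label was not taken to pair the libraries, and the block takes up the effect of ROS. Of 194 counts under alternatives, 158 stayed within 1.5 times the reported count and 36 did not. Counts of 0 that stayed at 0 are among the 158, as for the 10 genes with ROS and in most construct comparisons. Few residual degrees of freedom left little to be called there, so the tally does not measure how stable the calls are. Of 892 differences of single genes, 827 kept direction and call, 15 gained and 31 lost the call, and 19 changed sign, each on leaving out a library. The 827 likewise include differences that were called neither in the main fit nor in the alternative. The causes were not tested.

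Without a filter on low FPKM, 3 of the 10 genes and 2664 of all genes were called at day 4, 4 and 3879 at day 8, 43 of all genes between day 4 and day 8, and 41 with ROS. The calls lost were those of Fn1, Bgn, Loxl1 and Lum at day 4, and of Fn1, Loxl1 and Ogn at day 8. In a fit of all 11 libraries, 3560 of all genes were called at day 4, 5129 at day 8 and 1 between day 4 and day 8. Between day 4 and day 8, a pseudocount of 1 gave 2 of the 10 genes and 1366 of all genes, a pseudocount of 0.01 gave 8 of all genes, the transcript with the highest mean FPKM 91, median-of-ratios scaling 1 and 255, a minimum FPKM of 1 gave 1 and 592, a mean-variance trend 2 and 1389, and 1 coefficient per condition 0 of all genes.

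On leaving out 1 library, 4 to 8 of the 10 genes and 2091 to 7322 of all genes were called at day 4, 5 to 7 and 3438 to 8540 at day 8, 0 to 0 between day 4 and day 8 (genes described and all genes), 0 to 0 with ROS, and 0 to 1 and 0 to 411 in S265D. The log2 difference of Dpt ran from -0.17 to 1.28 at day 4, from -0.068 to 1.38 at day 8 and from -0.63 to 0.83 between them. At day 8 against day 0, Lum ran from -0.0025 to 0.27 and Fmod from -0.011 to 0.41. At day 8 against day 4, Fn1 ran from -0.81 to 0.22 and Loxl1 from -0.11 to 0.48. In S265A against WT, Dcn ran from -0.11 to 3.36, Bgn from -0.19 to 0.74, Ogn from -0.43 to 1.21 and Fn1 from -0.59 to 1.58. In S265D against WT, Dpt ran from -0.72 to 0.014, Bgn from -0.20 to 0.73, Fmod from -0.77 to 0.32, Fn1 from -0.17 to 2.01 and Loxl1 from -0.0047 to 0.038.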
